A study of Homo sapiens with 16 samples.

Results

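Open chromatin at the loci of MEF2A, MEF2C and MEF2D, 3 genes of the myocyte enhancer factor 2 family, was followed in Rh30 cells treated with dTAG47, a degrader of tagged PAX3-FOXO1. Members were the regions of the deposited count tables that overlapped a window around each gene on hg19, of 190 kb on chromosome 15 for MEF2A, 240 kb on chromosome 5 for MEF2C and 70 kb on chromosome 1 for MEF2D. This gave 20 of the 56949 regions in experiment 6086 (7 at MEF2A, 3 at MEF2C and 10 at MEF2D) and 12 of the 40844 regions in experiment 6211 (5, 1 and 6). All 32 lay wholly inside their window and passed the filter on low counts. Over these regions a few small changes were found, the clearest of them at 1 region near the upper end of the MEF2D cluster. No member changed by as much as 2-fold at any time. At 24 h in 6086, 3 of 20 members changed at an adjusted p under 0.05, against 32.2% of all regions. At 2 h it was 1 of 20 against 5.22% in 6086, and 1 of 12 against 6.89% in 6211.

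MEF2 proteins are transcription factors that bind DNA through a MADS box and act with the myogenic basic helix-loop-helix factors, such as MYOD1, to switch on muscle genes. In resting or undifferentiated cells they are held back by class IIa histone deacetylases. MEF2A is prominent in heart and skeletal muscle, MEF2C is needed for heart development and for muscle and brain function, and MEF2D is made in most tissues, with a splice form particular to differentiating muscle. Rh30 is a line of alveolar rhabdomyosarcoma, a childhood tumour whose cells carry features of arrested muscle precursors, and PAX3-FOXO1 is the fusion transcription factor typical of that tumour.

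ATAC-seq, an assay that tags open DNA with a transposase, was the readout. All cells carried PAX3-FOXO1 fused to FKBP, a tag through which the degrader dTAG47 brings the fusion to a ubiquitin ligase, and the DMSO controls carried it too. Experiment 6211 held cells given 500 nM dTAG47 for 0.5, 1 and 2 h and experiment 6086 held cells given it for 2, 4 and 24 h, each with DMSO cells of its own and 2 libraries per group. The labels name neither the clonal origin of the tagged line nor an untagged control, so effects of dTAG47 itself and of losing the fusion cannot be told apart, and the level of the fusion and markers of cell identity were not examined in these tables. Libraries held 9934147 to 18275976 counts in regions in 6211 and 18038062 to 31308682 in 6086. Levels are in CPM, counts scaled to a common total over all regions after TMM normalization. Every region that passed the filter entered edgeR's quasi-likelihood test, its p-values were adjusted over that table by Benjamini-Hochberg, and calls were made at an adjusted p under 0.05. No label ties the libraries of a group to separate cultures. The p-values therefore rest on the spread between these libraries, largely borrowed from other regions of the table, and that spread may be technical.

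To show sequence around listed starts of these genes, RefSeq promoter windows (250 bases before to 50 bases after a listed start, GRCh38.p14) were read for the 3 genes. RefSeq lists 3 such windows for MEF2A, 7 for MEF2C and 1 for MEF2D. Whether a listed start is the main start of its gene, or is used in these cells, was not determined. The core of the site that MEF2 proteins bind was searched as 1 pattern, CTA, any 4 bases and TAG. This pattern, the same on both strands, occurred in 1 of the 3 MEF2A windows and in none of the other 8. Other forms of the site were not searched, and any middle bases were allowed. The counts are therefore of this pattern and not of all MEF2 sites. Of 35116 promoter windows of this length, 2.73% held the pattern. In that MEF2A window it read CTAAAAATAG and began 23 bases before the start listed for that window. The E-box CANNTG, the site of MYOD1-type factors, occurred in the MEF2D window in 2 copies, in 6 of the 7 MEF2C windows and in 1 of the 3 MEF2A windows, against at least 1 copy in 68.7% of all windows. The sequences are given on the strand of the gene, with capitals marking the MEF2 site in MEF2A, at chr15:99565734-99566033 on the plus strand, and the E-boxes in MEF2D, at chr1:156490638-156490937 on the minus strand.
MEF2A: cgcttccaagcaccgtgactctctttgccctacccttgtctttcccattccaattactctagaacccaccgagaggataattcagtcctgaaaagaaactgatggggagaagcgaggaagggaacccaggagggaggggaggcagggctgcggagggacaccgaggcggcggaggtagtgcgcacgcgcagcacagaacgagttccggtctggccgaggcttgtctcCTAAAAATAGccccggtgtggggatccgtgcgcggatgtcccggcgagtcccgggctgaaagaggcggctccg
MEF2D: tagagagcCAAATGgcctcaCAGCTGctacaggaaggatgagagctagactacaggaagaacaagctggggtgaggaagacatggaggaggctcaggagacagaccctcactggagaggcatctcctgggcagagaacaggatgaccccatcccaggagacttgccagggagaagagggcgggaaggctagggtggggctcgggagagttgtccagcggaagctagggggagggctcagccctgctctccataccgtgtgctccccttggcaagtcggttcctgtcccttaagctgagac
These positions are on another build than the count tables and were not converted, so whether a counted region covers either window was not determined. A match is a description of letters and not a sign of binding.

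The MEF2 windows differed in how densely counted regions lay in them. In 6086 the MEF2D window had 14.3 regions per 100 kb, the MEF2A window 3.68 and the MEF2C window 1.25. Regions covered 6.6% of the MEF2D window, 1.8% of the MEF2A window and 0.58% of the MEF2C window. These values depend on the windows chosen, and the density over all regions was not computed. Regions are numbered here along the chromosome within each locus, with the letter of the gene. At MEF2A, A1 (chr15:100086679-100087380), with its centre 7.03 kb above the lower edge of the window, stood alone, A2 (chr15:100105417-100105849) and A3 (chr15:100106018-100106362) lay 168 bp apart, and a gap of 142 kb separated A3 from A4 (chr15:100248862-100249089). A5 (chr15:100257336-100258113), A6 (chr15:100258394-100259046) and A7 (chr15:100259264-100259460) formed a tight group near the upper end. MEF2C had C1 (chr5:88081742-88081998), 91.9 kb above the lower edge, then, after 97.9 kb, C2 (chr5:88179884-88180211) and C3 (chr5:88184993-88185808). At MEF2D, D1 (chr1:156426274-156427566), 6.92 kb above the lower edge, was followed after 31.3 kb by D2 (chr1:156458883-156459236), D3 (chr1:156459520-156459724), D4 (chr1:156460192-156460577), D5 (chr1:156466174-156466647), D6 (chr1:156469696-156469982), D7 (chr1:156470145-156470244), D8 (chr1:156470548-156471402), D9 (chr1:156474548-156475009) and D10 (chr1:156475146-156475350). D9 and D10 were 136 bp apart. The 12 regions of 6211 overlapped A1, A3, A5, A6, A7, C3, D1, D2, D5, D8, D9 and D10 and are called by those names, although each is 401 bp wide there, so levels are not comparable between the experiments. The regions carry no gene annotation on hg19, so none is called a promoter, exon or intron.

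**Figure D1:**
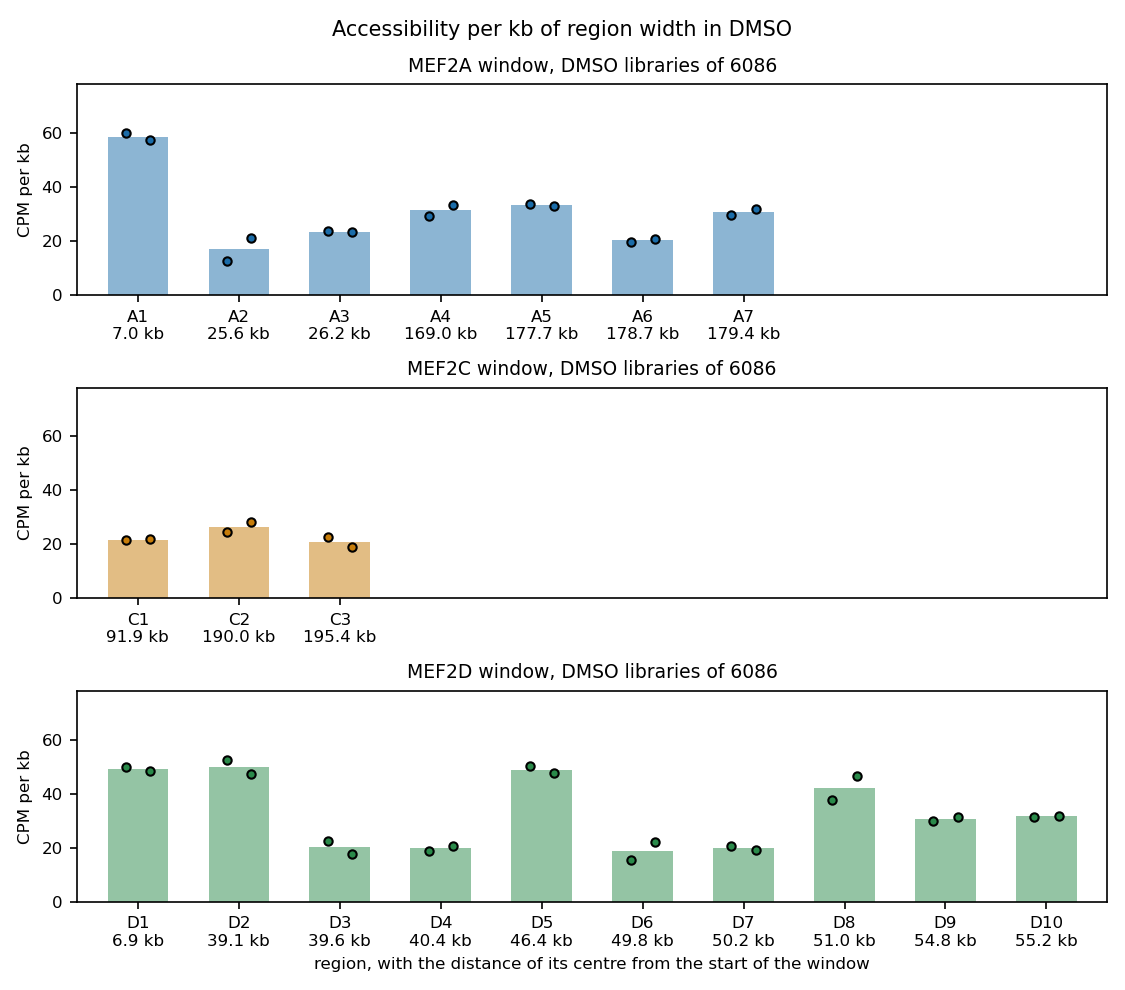
Mean CPM per kb of region width in the DMSO libraries of 6086 (bars, n = 2, with each library as a point) for the 20 regions, with the distance of each region's centre from the start of its window. A1 is the highest at 58.8 CPM per kb, while the 3 MEF2C regions lie between 20.8 and 26.3.

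In DMSO cells the most accessible member per kb in 6086 was A1, with 58.8 CPM per kb, which placed it at percentile 92.2 of all regions tested. In the MEF2D locus D2, D1, D5 and D8 had 49.97, 49.1, 48.8 and 42.1 CPM per kb, and the 6 others 18.8 to 31.6. The MEF2C regions had 20.8 to 26.3 CPM per kb, at percentiles 9.99 to 24.0. The lowest of these was C3, which is 816 bp wide. By CPM not divided by width, C1, C2 and C3 were at percentiles 21.0, 41.9 and 67.9. In 6211, at equal widths, C3 was at percentile 46.6 per kb. As CPM not divided by width, the highest regions in DMSO were A1 at MEF2A (41.2 CPM), C3 at MEF2C (17.0 CPM) and D1 at MEF2D (63.4 CPM). In 6211, where widths were equal, they were A1 (53.9 CPM), C3 (17.2 CPM, the only MEF2C region of that table) and D1 (31.8 CPM). D5 followed D1 at 30.5 CPM, a gap smaller than the SD of 2.62 CPM between the DMSO libraries of D1. Replicate libraries of a group differed most at A2 in 6086, by 0.71 on the log2 scale, and by up to 0.65 in 6211, at D8 in DMSO (19.9 CPM in library A and 31.3 CPM in library B).

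D9 at MEF2D was the member that moved most at 2 h, and it did so in both experiments. In 6211 it had 20.5 and 21.2 CPM after 2 h of dTAG47, against 14.9 and 15.1 CPM in DMSO. Both treated libraries lay above both controls, and D9 rose 1.39-fold (log2 change 0.47, SE 0.13, 95% interval 0.21 to 0.74, adjusted p = 0.024). It was the 1 member of 12 called higher there, where 1.97% of all regions were called higher. Lower calls took 0 members and 4.92% of all regions, and both directions together 6.89% of all regions. In 6086, with DMSO libraries of its own, D9 had 17.7 and 18.9 CPM after 2 h, against 13.8 and 14.5 CPM in DMSO. The groups again did not overlap, and D9 rose 1.29-fold (log2 change 0.37, SE 0.09, 95% interval 0.18 to 0.55, adjusted p = 0.0098). This was 1 of 20 members called higher, against 0.978% of all regions. Lower calls took 0 members and 4.25% of all regions, and both directions together 5.22% of all regions. Each call was lost in some alternatives. Leaving out a library leaves 1 in its group, so a call lost that way does not show that 1 library made the change. In 6211 it was lost without DMSO library A, 2 h library A or 2 h library B (adjusted p = 0.12, 0.079 and 0.16) and in DESeq2 (0.14), with a range over all alternatives of 0.02 to 0.16. In 6086 it was lost without DMSO library A or 2 h library B (0.055 and 0.15) and in DESeq2 (0.12), with a range of 0.0071 to 0.15. The log2 change stayed between 0.45 and 0.50 in 6211 and between 0.32 and 0.42 in 6086 under these alternatives.

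The 2 h effects of the 2 experiments were compared directly. Of the members, 8 could be matched one to one by 50% reciprocal overlap, and 0 of them differed between the experiments at an adjusted p under 0.05, as was the case for 0% of all 29639 matched regions in edgeR (1 of the 8 and 6.19% of all had an unadjusted p under 0.05). In this joint fit of the matched regions, the log2 change of D9 in 6086 minus that in 6211 was -0.08 (95% interval -0.40 to 0.23, adjusted p = 0.96). The largest difference was at A3, 0.42 (95% interval 0.04 to 0.81, adjusted p = 0.80), where the separate fits gave log2 changes of 0.09 in 6086 and -0.31 in 6211. A difference of this size at A3 cannot be told from 0 after adjustment, and the intervals do not show that the effects were equal.

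Earlier and later times showed how D9 moved around the 2 h level. In 6211 its DMSO libraries had 14.9 and 15.1 CPM, those at 0.5 h 16.8 and 16.1 CPM, those at 1 h 17.6 and 21.6 CPM and those at 2 h 20.5 and 21.2 CPM. Each treated library was above both DMSO libraries, while the changes at 0.5 h (log2 change 0.13, adjusted p = 0.90) and 1 h (0.40, adjusted p = 0.093) were not called. The 1 h change depended on 1 library: without 1 h library A it was called (log2 change 0.52, adjusted p = 0.031), and without 1 h library B it was 0.23 (adjusted p = 0.78). In 6086 the DMSO libraries had 13.8 and 14.5 CPM, those at 2 h 17.7 and 18.9 CPM, those at 4 h 13.4 and 15.8 CPM and those at 24 h 11.8 and 12.5 CPM. The 4 h libraries lay around the DMSO level (log2 change 0.04, 95% interval -0.15 to 0.24, adjusted p = 0.88), and those at 24 h lay below it without being called (-0.22, adjusted p = 0.069). Tested directly, D9 fell between 2 and 24 h by 0.59 on the log2 scale (SE 0.09, adjusted p = 2.6e-06), and this call held under all 12 alternatives run for it (adjusted p from 1.7e-07 to 0.00061). From 4 to 24 h D9 fell by 0.27 (adjusted p = 0.032), a call lost without 4 h library B (log2 change -0.14, adjusted p = 0.49) or either 24 h library (0.20 and 0.063) and in DESeq2 (0.22), with a range of 0.015 to 0.49. The step from 2 to 4 h was not called (log2 change -0.32, adjusted p = 0.18). The step from 0.5 to 2 h in 6211 was not called either (0.34, adjusted p = 0.24). Steps between times share libraries with the comparisons with DMSO.

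**Figure D2:**
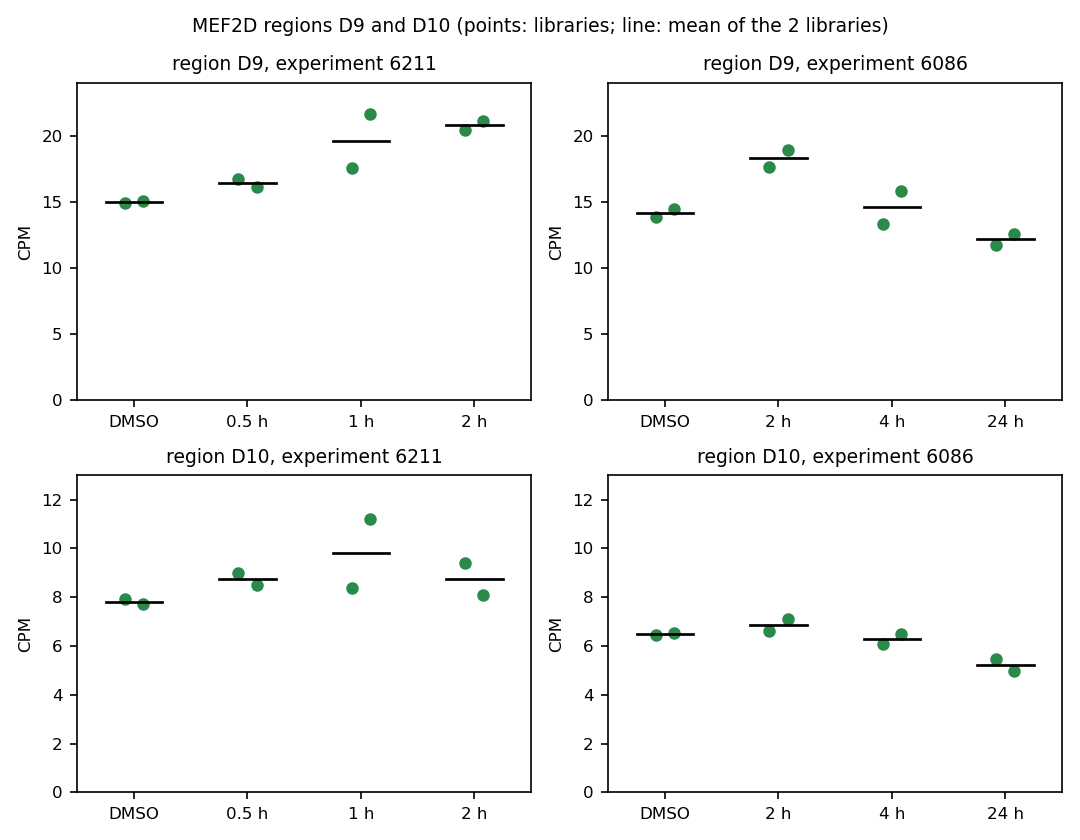
CPM of the neighbouring MEF2D regions D9 (top) and D10 (bottom) in each library (points) and group mean (lines, n = 2) by time of dTAG47 in 6211 (left) and 6086 (right). D9 is above DMSO at 2 h in both experiments and falls to 11.8 and 12.5 CPM at 24 h, and D10 is lowest at 24 h, with 5.46 and 4.97 CPM.

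D10, the narrower region beside D9, was the single member called lower at 24 h. It had 5.46 and 4.97 CPM at 24 h, against 6.44 and 6.53 CPM in DMSO. The groups did not overlap, and D10 fell 1.25-fold (log2 change -0.32, SE 0.12, 95% interval -0.57 to -0.06, adjusted p = 0.048). With an adjusted p this near to 0.05, the call was lost in 9 of 12 alternatives, with a range of 0.047 to 0.27. It was lost whichever of the 4 libraries was left out (0.099 and 0.18 for DMSO libraries A and B, 0.064 and 0.26 for 24 h libraries A and B), in DESeq2 (0.27) and when scaled to library size only (0.073). D10 also fell between 2 and 24 h, by 0.39 on the log2 scale (adjusted p = 0.011), a call lost without 2 h library B (0.11) or 24 h library B (0.12) and in DESeq2 (0.13), with a range of 0.0082 to 0.13. Its earlier libraries in 6086 had 6.597 and 7.09 CPM at 2 h and 6.07 and 6.47 CPM at 4 h, and neither time was called against DMSO (log2 change 0.08 and -0.05, adjusted p = 0.83 and 0.91). In 6211 D10 had 9.39 and 8.09 CPM at 2 h, against 7.91 and 7.72 CPM in DMSO, and was not called (log2 change 0.17, adjusted p = 0.66).

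The other 8 MEF2D regions of 6086 were not called at any time against DMSO. Their log2 changes lay between -0.12 and 0.31 over 2, 4 and 24 h. The highest was D4 at 2 h, with 9.71 and 9.33 CPM at 2 h, against 7.28 and 8.02 CPM in DMSO (log2 change 0.31, adjusted p = 0.13). At 24 h D4 had 9.601 and 8.78 CPM (0.25, adjusted p = 0.076), and it was called there when scaled to library size only (0.28, adjusted p = 0.046). D1, the widest member at 1293 bp, had log2 changes of -0.07, -0.03 and 0.04 at 2, 4 and 24 h, and D8 of -0.02, -0.02 and 0.00. In 6211, apart from D9, the MEF2D regions had log2 changes between -0.26 (D1 at 1 h, adjusted p = 0.24) and 0.34 (D10 at 1 h, adjusted p = 0.31), and none was called.

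At MEF2A, A1 and A5 rose after 24 h. A1 had 47.4 and 47.6 CPM at 24 h, against 42.2 and 40.2 CPM in DMSO, a 1.16-fold rise (log2 change 0.21, SE 0.06, 95% interval 0.09 to 0.32, adjusted p = 0.0044). The groups did not overlap. A5 had 30.4 and 30.2 CPM at 24 h, against 26.4 and 25.7 CPM in DMSO, a 1.17-fold rise (log2 change 0.22, SE 0.07, 95% interval 0.08 to 0.36, adjusted p = 0.011), again without overlap. These 2 were the members called higher of 20, where 13.6% of all regions were called higher, and D10 the 1 called lower, where 18.6% of all regions were. In both directions together 3 of 20 members were called, against 32.2% of all regions. The call of A1 was lost without DMSO library B (adjusted p = 0.052, range over alternatives 0.0013 to 0.052). That of A5 was lost without DMSO library B (0.066) or 24 h library A (0.057) and in DESeq2 (0.075, range 0.0041 to 0.075).

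Before 24 h neither region was called. A1 had 43.7 and 43.9 CPM at 2 h and 46.8 and 45.8 CPM at 4 h, all above both DMSO libraries. A1 had log2 changes against DMSO of 0.09 at 2 h (adjusted p = 0.49), 0.17 at 4 h (adjusted p = 0.078) and 0.21 at 24 h, and its step from 2 to 24 h was not called (0.12, adjusted p = 0.11). Scaled to library size only, A1 was already called at 4 h (0.18, adjusted p = 0.047). A5 had 25.7 and 24.0 CPM at 2 h and 25.7 CPM in both libraries at 4 h, none of them above the higher DMSO library (log2 change -0.06 and -0.01). It rose between 2 and 24 h by 0.29 on the log2 scale (adjusted p = 0.0012), a call that held under all 12 alternatives run for it (adjusted p from 0.00068 to 0.045). It also rose between 4 and 24 h by 0.24 (adjusted p = 0.0091), a call lost without 4 h library A, 4 h library B or 24 h library A (0.063, 0.066 and 0.057) and in DESeq2 (0.079, range 0.0032 to 0.079). Whether the time courses of A1 and A5 differ from each other was not tested. In 6211, up to 2 h, A1 had log2 changes of 0.03, 0.09 and 0.08 and A5 of -0.02, -0.02 and -0.08, and neither was called.

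A4, present in the 6086 table alone, fell late. It had 6.31 and 6.37 CPM at 24 h, against 8.59 and 8.06 CPM at 2 h, and fell by 0.39 on the log2 scale between these times (adjusted p = 0.0076). The call was lost without 2 h library A (0.087) and in DESeq2 (0.097), with a range of 0.0037 to 0.097. At 4 h it had 8.63 and 7.31 CPM. A4 fell by 0.33 between 4 and 24 h (adjusted p = 0.037), a call lost without 4 h library A (log2 change -0.21, adjusted p = 0.39), 24 h library A or 24 h library B (0.13 for each) and in DESeq2 (0.27, range 0.029 to 0.39). Against DMSO, which had 6.72 and 7.63 CPM, A4 was not called at 2 h (log2 change 0.20, adjusted p = 0.43), 4 h (0.14, adjusted p = 0.64) or 24 h (-0.19, adjusted p = 0.25, with log2 changes of -0.27 to -0.08 over the alternatives). Among all regions, 17.6% were called lower and 12.8% higher at 24 h than at 2 h (30.4% together), and among the members 3 (D9, D10 and A4) were lower and 1 (A5) was higher. From 4 to 24 h, 13.9% of all regions were called lower and 8.73% higher (22.6% together), with 2 members lower (D9 and A4) and 1 higher (A5).

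The remaining MEF2A regions, A2, A3, A6 and A7, were not called. In 6086 the highest log2 change among them was that of A3 at 24 h, with 10.4 and 8.87 CPM at 24 h, against 8.23 and 8.02 CPM in DMSO (0.25, adjusted p = 0.084). In 6211 the same place had the lowest log2 change at MEF2A, with 15.1 and 15.97 CPM at 2 h, against 18.2 and 20.4 CPM in DMSO (log2 change -0.31, adjusted p = 0.22). The 24 h change of A3 in 6086 was called without 24 h library B (0.36, adjusted p = 0.035) and was 0.13 without 24 h library A (adjusted p = 0.53).

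**Figure D3:**
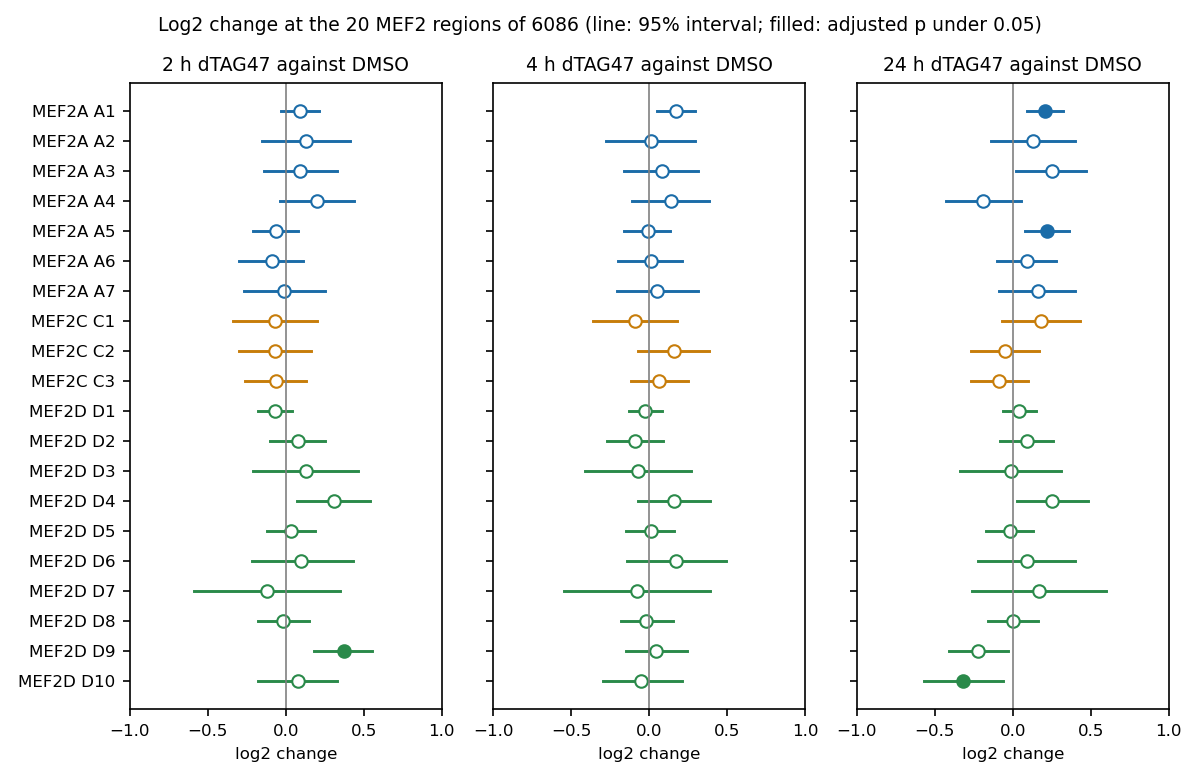
Log2 change against DMSO at 2, 4 and 24 h of dTAG47 for the 20 MEF2 regions of 6086, with 95% intervals, coloured by gene and filled where the adjusted p was under 0.05. The filled points are D9 at 2 h (0.37) and A1 (0.21), A5 (0.22) and D10 (-0.32) at 24 h.

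At MEF2C, 0 regions were called in either direction in either experiment at any time (edgeR gave 1 unadjusted p under 0.05 over 12 tests, and DESeq2 gave 0 calls). Over all regions, 0.00735%, 2.69% and 6.89% were called at 0.5, 1 and 2 h in 6211, and 5.22%, 7.19% and 32.2% at 2, 4 and 24 h in 6086. These shares are at an adjusted p under 0.05, and the share at an unadjusted p under 0.05 was not counted. C3, the region seen in both tables, had 14.9 and 16.6 CPM at 24 h, against 18.5 and 15.5 CPM in DMSO in 6086 (log2 change -0.09, 95% interval -0.27 to 0.10, adjusted p = 0.51). The groups overlapped. In 6211 it had 15.2 and 12.9 CPM at 2 h, against 19.0 and 15.3 CPM in DMSO, and was not called although both 2 h libraries were the lower ones (log2 change -0.29, adjusted p = 0.24). The value was -0.12 without DMSO library A (adjusted p = 0.80) and -0.43 without DMSO library B (adjusted p = 0.085). C1 had 6.28 and 6.37 CPM at 24 h, against 5.54 and 5.63 CPM in DMSO (log2 change 0.18, adjusted p = 0.30). C2, the region between them, had 8.85 and 8.05 CPM at 24 h, against 8.01 and 9.27 CPM in DMSO, with overlapping groups (log2 change -0.05, adjusted p = 0.79).

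Intervals of the fitted changes bound their size only within the fit. They rest on a spread between libraries that may be technical. They are also relative to TMM scaling, which would remove a shift shared by most regions. Over the 20 regions and 3 times of 6086, all 60 intervals of the change against DMSO excluded a 2-fold change in either direction and 58 excluded a 1.5-fold change. In 6211 all 36 excluded a 2-fold change and 31 a 1.5-fold change. Among the values not called, the lowest and highest interval ends were 0.662-fold and 1.51-fold in 6086, and 0.657-fold and 1.60-fold in 6211.

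Over the members as a list, the median log2 change in 6086 was 0.05 (2 h), 0.01 (4 h) and 0.09 (24 h), and medians over all regions were 0.0017, 0.0063 and -0.0031. In 6211 it was 0.06, 0.06 and 0.01 at 0.5, 1 and 2 h, and over all regions -0.0013, 0.0075 and 0.0035. The median size of the log2 change without its sign was, in 6211, 0.088 for members and 0.09 for all regions at 0.5 h, 0.192 and 0.115 at 1 h, and 0.126 and 0.131 at 2 h. In 6086 it was 0.084 for members and 0.095 for all regions at 2 h, 0.067 and 0.096 at 4 h, and 0.145 and 0.156 at 24 h. At 0.5 h, 0 members and 0.00735% of all regions were called, with 0 members at an unadjusted p under 0.05. At 1 h it was 0 members (4 at an unadjusted p under 0.05) and 2.69% of all regions, 2.47% lower and 0.22% higher. At 4 h it was 0 members (1 at an unadjusted p under 0.05) and 7.19% of all regions, 5.44% lower and 1.75% higher. DESeq2 called 0 members at each of these 3 times. Of the early steps, that from 0.5 to 1 h had 0 calls over all regions. The step from 1 to 2 h had 0 member calls and 0.641% of all regions (0.316% lower, 0.326% higher), and that from 0.5 to 2 h 0 member calls and 1.42% of all regions (1.28% lower, 0.147% higher). From 2 to 4 h, 0 members and 0.0808% of all regions were called, 0.0773% lower and 0.00351% higher. DESeq2 called 0 members in these steps too. In edgeR, members with an unadjusted p under 0.05 numbered 2 from 0.5 to 1 h, 1 from 1 to 2 h, 2 from 0.5 to 2 h and 2 from 2 to 4 h. The shares of all regions given here are at an adjusted p under 0.05. The share at an unadjusted p under 0.05 was not counted for these comparisons. The unadjusted member counts therefore show neither an excess nor a lack of members.

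Summed over its regions, each locus lay between 81.9% and 113% of its DMSO mean in every dTAG47 group. The MEF2A total was 123 CPM in both libraries at 24 h, against 108 and 111 CPM in DMSO, 113% of the DMSO mean, with 103% at 2 h and 106% at 4 h. Both libraries of each of these times were above both DMSO libraries. The MEF2D total was 182 and 181.5 CPM at 24 h, against 177.5 and 182.5 CPM in DMSO, or 101%. The MEF2C total was 30.1 and 31.1 CPM at 24 h, against 32.0 and 30.3 CPM in DMSO, or 97.9%. In 6211 the totals at 2 h were 99.7% of DMSO at MEF2A, 81.9% at MEF2C, which there is C3 alone, and 102% at MEF2D. Leaving out 1 library moved the log2 ratio of the MEF2C total at 2 h in 6211, -0.29, to between -0.43 (without DMSO library B) and -0.13 (without DMSO library A). The totals were not tested.

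**Figure D4:**
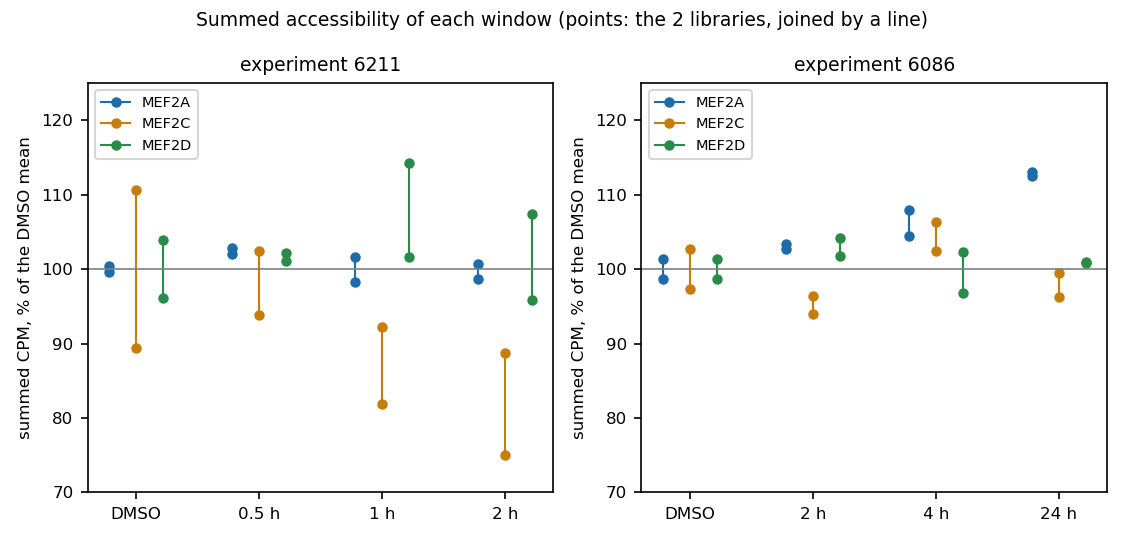
Summed CPM of the regions of each window, as a percent of the DMSO mean of the same experiment, for both libraries of each group (points joined by a line). In 6086 the MEF2A total reaches 113% at 24 h, and in 6211 the MEF2C total, a single region, is at 81.9% on average at 2 h.

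The nearest regions outside the windows give the edges of the choice in 6086. Below MEF2A the next region lay 27.5 kb away (log2 change at 24 h 0.11) and above it 3.34 kb away (0.07). For MEF2C the distances were 13.5 kb below (0.11) and 139 kb above (0.21, adjusted p = 0.048). For MEF2D they were 4.11 kb below (-0.05) and 5.08 kb above (-0.45, adjusted p = 0.0019). The regions above MEF2C and MEF2D were thus called at 24 h, and -0.45 was larger in size than the 24 h change of any of the 20 members, which ran from -0.32 to 0.25.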

How the data were processed

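For each experiment the authors deposited 1 table of raw read counts over shared regions. Per the submitters' processing notes, the tools were deepTools, DESeq2, DiffBind, Genrich 0.6.1, Bowtie2 and Trimmomatic 0.32, and the builds dm3 and hg19. Which step used which, transposase shifting and duplicate removal are not given in the sources used here. Coordinates are taken as hg19. The authors' 6 comparison tables were not used.

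Each column was placed in a group by the treatment and hour it names. Its letter, A or B, could not be tied to a replicate number. In R 4.3.3, edgeR 4.0.16 (TMM, filterByExpr, quasi-likelihood) took all 8 libraries of an experiment in 1 fit with 4 residual degrees of freedom. The spread borrowed from other regions added 19.6 prior degrees of freedom in 6211 and 29.9 in 6086. The filter left 56945 regions in 6086 and 40844 in 6211. The SE is the log2 change divided by the square root of F. Intervals are 95% from the fitted degrees of freedom. Replicate pairs had chi-squares of 1.34 to 2.66 per degree of freedom, so none agreed within sampling noise. Regions were matched with bedtools 2.31.1.

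Members and named regions were chosen with earlier results of these data known. The text names, in each locus, the most accessible region, every called region, the extremes of each comparison and the nearest regions outside. Alternatives were DESeq2 1.42.0, other scaling and filters, robust spread, only the groups compared, a block, leaving out each library, other windows and other overlaps. A planned likeness between regions over 4 group means was not made, 4 points being too few. Partner genes and region motifs were planned only with an hg19 annotation and genome, and were not analysed here.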

Additional observations from a re-analysis of the deposited data

Results flagged for a closer look

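Effects of different times of dTAG47 were called different at 4 regions of 6086, by direct tests between the times in edgeR with Benjamini-Hochberg adjustment. The 24 h effect minus the 2 h effect was -0.59 on the log2 scale at D9 (adjusted p = 2.6e-06), -0.39 at D10 (adjusted p = 0.011), -0.39 at A4 (adjusted p = 0.0076) and 0.29 at A5 (adjusted p = 0.0012). The 24 h effect minus the 4 h effect was -0.27 at D9 (adjusted p = 0.032), -0.33 at A4 (adjusted p = 0.037) and 0.24 at A5 (adjusted p = 0.0091). In each of these 7 steps both libraries of the later time lay on the same side of both libraries of the earlier one. The calls from 2 to 24 h at D9 and A5 held under all 12 alternatives. Each of the others was lost in DESeq2 and in some fits without 1 library. Between 24 and 2 h, 4 of 20 members were called in 1 direction or the other, against 30.4% of all regions. Between 24 and 4 h it was 3 of 20 members, against 22.6% of all regions. What sets these differences was not tested.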

How the results depend on the processing

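Of 12 called changes followed through 144 alternative fits, 107 fits kept the call, 37 lost it and 0 reversed it. Of 30 uncalled extremes followed through 360 fits, 4 became calls and 15 changed sign. Those that changed sign when a library was left out ranged at 0.5 h in 6211 from -0.13 to 0.53 at D8, from -0.06 to 0.19 at A3, from -0.13 to 0.08 at A5 and from -0.17 to 0.13 at C3. In 6086 they ranged at 2 h from -0.51 to 0.18 at D7, from -0.20 to 0.01 at A6 and from -0.20 to 0.06 at C3, at 4 h from -0.03 to 0.50 at D6 and from -0.04 to 0.00 at A5, and at 24 h from -0.22 to 0.03 at C3. By library size A5 at 4 h was 0.00.

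Members called higher at 2 h numbered 1 in each experiment and 0 in DESeq2, with 0 to 1 when a library was left out of 6211 and 0 to 2 in 6086. At 1 h, 0 became 0 to 2 when a library was left out. At 4 h, 0 became 1 by library size. The 1 region lower at 24 h became 0 by library size, by median-ratio factors, with the replicate block by library letter, in DESeq2, with only the groups compared and without any 1 library (0 to 0), and 2 with windows widened by 20 kb. The 2 higher at 24 h were 1 in DESeq2, 3 by library size and 1 to 3 without a library. From 4 to 24 h, 2 lower and 1 higher became 0 in DESeq2 and 0 to 1 each without a library. From 2 to 24 h, 3 lower became 1 in DESeq2, and A4 or D10 was also lost in some fits without 1 library. From 0.5 to 2 h, 0 lower became 1 with wider windows. The 0 members that differed between experiments at 2 h kept that count at other overlaps and, chosen after seeing the data, without any library.

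Log2 ratios of the locus totals moved beyond 1 SD as follows. By library size they were 0.05 (0.5 h) and 0.01 (2 h) at MEF2A in 6211, and 0.20 at MEF2A and 0.04 at MEF2D at 24 h. Without the region of highest CPM they were -0.07 and -0.07 at MEF2A (1 and 2 h, 6211), 0.02, 0.03 and 0.15 at MEF2A (2, 4 and 24 h, 6086), 0.05 at MEF2C (24 h) and 0.10 at MEF2D (2 h, 6086). Without 1 library they ranged from -0.03 to 0.08 at MEF2D at 0.5 h and from -0.01 to 0.03 at 24 h. The cause of these shifts was not tested.

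The letters do not pair the libraries by the labels. Differences between libraries A and B correlated across groups between -0.05 and 0.21 in 6211 and between -0.14 and 0.15 in 6086. The block changed no other count.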
